A study of Mus musculus with 15 samples.

Results

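The interferon-induced genes are a set of 55 genes, 36 targets of type I interferon and 19 targets of type II interferon, chosen by name from the 24656 genes in a table of ovarian RNA sequencing. Of the 55, 54 passed the filter, which asked for a minimum of 10 in 5 or more of the 15 libraries, and were tested with 17515 other genes; the exception, Oas3, had values between 0.991 and 14.3. The study asked how canagliflozin, an inhibitor of the glucose transporter SGLT2 given as a diabetes drug, affects the ageing ovary of female UM-HET3 mice, a cross of several inbred strains in which each animal has its own genotype. It had 3 groups of 5 mice, with RNA from 1 ovary of each: untreated controls at 6 months of age, untreated controls at 12 months, and 12-month mice that had received canagliflozin for the preceding 6 months. No allele or agent other than canagliflozin is named for any group. The extraction protocol in the labels speaks of the 12-month groups, and whether the 6-month ovaries were handled alongside them is not given in the sources used here. A whole ovary holds follicles, stroma, vessels and immune cells, so fewer cells of a type and less RNA per cell cannot be told apart in these values.

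Interferons are secreted proteins that tell cells of infection. Type I interferons bind the IFNAR1 and IFNAR2 receptor chains, whose kinases JAK1 and TYK2 activate STAT2 among others; with IRF9 it binds the interferon-stimulated response element (ISRE) beside genes for antiviral proteins. Type II interferon, interferon gamma, comes mainly from T and NK cells, binds IFNGR1 and IFNGR2, and acts at the gamma-activated site (GAS), raising IRF1, the guanylate-binding proteins, the immunity-related GTPases and the class I antigen processing machinery. The sets overlap, since many genes answer to either interferon.

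The promoters of the set show these elements directly. RefSeq windows of 300 bases on GRCm38.p6, from 250 bases before to 50 bases after the transcript start, were matched by symbol for 39 of the 55 genes, as 46 windows. The ISRE core, GAAA repeated after 2 bases of any kind, or TTTC likewise when read on the other strand, was in 43.3% of the 30 windows of type I targets and in 43.8% of the 16 of type II targets, against 3.44% of all 32851 windows in the table. The GAS core TTCNNNGAA, which reads the same on both strands, was in 6 of the 30 type I windows and in 43.8% of the type II windows, against 8.30% of all. Of the 29 ISRE matches in the set, 1 overlapped a GAS match. A match is a description of the letters and not a measured binding site, and a window without one says nothing of the factor.

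The stretches below were chosen because their genes carry the results that follow: the IFIT genes and Isg15 for the type I pattern, Rsad2 as a type I target outside it, Igtp and Irgm2 as neighbours of near-identical promoter sequence, Gbp7 and Gbp2 as the guanylate-binding genes that passed a test, and Irf1 as a factor with a GAS match alone. Each is written 5′ to 3′ on the strand of the gene, with ISRE and GAS core matches in capitals.
Isg15, chr4:156200855-156200916, minus strand, 3 overlapping ISRE matches: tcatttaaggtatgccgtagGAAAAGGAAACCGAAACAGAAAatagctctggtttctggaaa
Ifit1, chr19:34640765-34640833, plus strand, 2 ISRE matches: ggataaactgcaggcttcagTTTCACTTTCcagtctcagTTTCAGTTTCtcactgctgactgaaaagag
Ifit3, chr19:34583353-34583436, plus strand, 2 ISRE matches: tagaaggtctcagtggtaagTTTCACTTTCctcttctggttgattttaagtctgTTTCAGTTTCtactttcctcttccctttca
Ifit3b, chr19:34607749-34607832, plus strand, 2 ISRE matches: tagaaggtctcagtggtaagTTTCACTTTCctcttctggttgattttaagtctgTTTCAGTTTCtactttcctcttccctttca
Rsad2, chr12:26456543-26456592, minus strand, 1 ISRE match: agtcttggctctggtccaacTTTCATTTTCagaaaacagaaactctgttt
Igtp, chr11:58199491-58199551, plus strand, 1 GAS then 1 ISRE match: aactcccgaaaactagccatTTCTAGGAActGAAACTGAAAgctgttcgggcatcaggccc
Irgm2, chr11:58214882-58214942, plus strand, 1 GAS then 1 ISRE match: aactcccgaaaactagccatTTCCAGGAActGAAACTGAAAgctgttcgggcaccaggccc
Gbp7, chr3:142530210-142530312, plus strand, 2 GAS then 1 ISRE match: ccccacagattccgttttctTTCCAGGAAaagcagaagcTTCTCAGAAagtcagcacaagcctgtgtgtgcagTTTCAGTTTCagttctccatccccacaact
Gbp2, chr3:142620584-142620633, plus strand, 1 ISRE match: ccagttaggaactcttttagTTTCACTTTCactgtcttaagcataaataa
Irf1, chr11:53769904-53769952, plus strand, 1 GAS match: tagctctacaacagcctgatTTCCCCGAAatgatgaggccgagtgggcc
The 84 bases shown for Ifit3 and Ifit3b are identical, and the 61 bases shown for Igtp and Irgm2 differ at 2 positions. The windows of Tap1 and Psmb9, which are transcribed away from each other, share 275 bases and held neither core.

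Levels are given as the deposited values, reads divided by 1 scaling factor for each library, and levels of different genes are compared per kilobase of annotated exon. On that scale the median gene of the type I set stood at 43.8 per kb and of the type II set at 95.2 per kb, beside 87.6 per kb over 17287 tested genes with a length. Bst2, a membrane protein that tethers budding virus to the cell, was the highest type I target at 2919 per kb, followed by Ifi27, a mitochondrial protein, at 1584 per kb and Lgals3bp, a secreted galectin-binding glycoprotein, at 394 per kb. The highest type II targets were Psmb10, a catalytic immunoproteasome subunit, at 372 per kb, Tap2, a subunit of the peptide transporter into the endoplasmic reticulum, at 366 per kb, and Psmb8, also a catalytic immunoproteasome subunit, at 257 per kb. Mx1 at 3.37 per kb was the lowest of the 54 tested members. Ifit3b stood at 15.3, Nlrc5 at 16.1, Usp18 at 16.3, Rsad2 at 17.8 and Oas2 at 17.9 per kb.

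The mice differed from each other within every group. Over the 15 libraries the ratio of the highest to the lowest value, with 1 added to each, was 8.60 for Rsad2 (viperin, which makes a chain-terminating nucleotide), 8.13 for Oas2 (a double-stranded RNA sensor that makes the activator of RNase L) and 7.85 for Usp18, the protease that removes ISG15 from proteins. Among type II targets it was 8.16 for Nlrc5, the transactivator of class I genes, 7.34 for Iigp1, a GTPase that attacks vacuoles of intracellular parasites, and 7.10 for Gbp6. The median SD within groups was 0.49 on the log2 scale for type I targets and 0.45 for type II targets. It was 0.25 for 10364 tested genes with a mean level between 35.6 and 771, the span of the central members.

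Oas2 shows how the mice of a group were spread. Its values were 47.4, 34.5, 97.4, 32.2 and 27.8 in 6-month mice 1 to 5, 172.8, 20.4, 85.4, 39.0 and 145.9 in 12-month control mice 1 to 5, and 52.3, 76.0, 63.1, 138.8 and 29.0 in canagliflozin mice 1 to 5. Low and high mice occurred in all 3 groups, and the groups overlapped. Nlrc5 had values of 96.7, 41.8, 66.2, 212 and 100.1 in the 6-month mice, 143.2, 60.2, 106.5, 204.1 and 348.2 in the 12-month controls, and 101, 126.6, 118.4, 148.7 and 82.1 in the canagliflozin mice. The high 6-month mouse was mouse 3 for Oas2 and mouse 4 for Nlrc5.

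**Figure D1:**
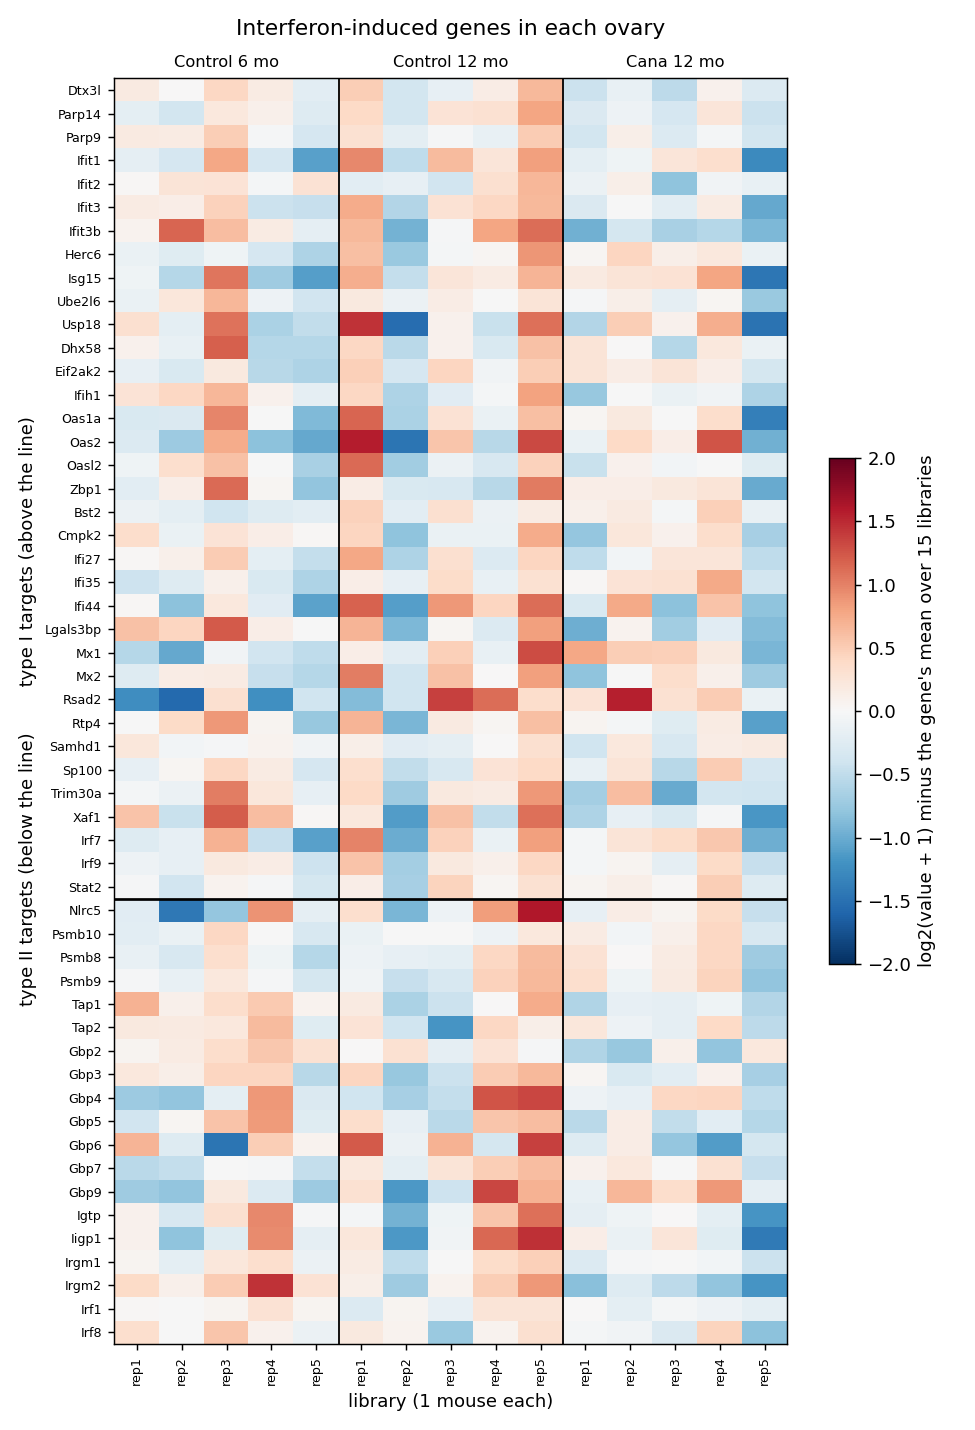
Each row is 1 of the 54 tested genes and each column 1 mouse, and colour gives log2(value + 1) minus that gene's mean over 15 libraries, from blue (lower) to red (higher), with type I targets above the line and type II targets below. 12-month control mouse 5 is red through most of both blocks, and 6-month mouse 4 is red mainly in the type II block.

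The genes of the set rose and fell together from mouse to mouse, and those of each type kept more closely to their own kind. With group means removed, the median Pearson correlation over 15 mice was 0.70 for the 595 pairs of type I targets, 0.60 for the 171 pairs of type II targets and 0.45 for the 665 pairs across types. For 385881 pairs among every 20th tested gene it was -0.00. All points of such a correlation share the same 15 libraries, so these are descriptions. Of 54 genes, 50 had a higher r, sign included, with the median of the other members of their own type than with that of the other type. The exceptions were Ifit2 and Mx1 among type I targets and Psmb10 and Gbp6 among type II targets. Gbp2 counted among the 50 although both of its r were negative. Leaving out any 1 mouse left the 3 medians at 0.61 to 0.73, 0.53 to 0.65 and 0.33 to 0.51 in the same order. In these fits 45 to 51 genes had the higher r for their own type.

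The closest pair was Ifit1, which binds viral RNA lacking host cap methylation, and Irf7, the factor that amplifies type I interferon production, with r = 0.976. Usp18 and Oas2 followed at 0.971, and Igtp and Iigp1, both immunity-related GTPases, at 0.970. Igtp and Irgm2, whose printed promoter stretches are nearly alike, correlated at 0.942; 11.8% of the 50-base windows of Igtp occur in Irgm2 as well, so some reads of the pair may be exchanged. The immunoproteasome subunits Psmb8 and Psmb9 correlated at 0.957. In these pairs largely the same mice were high and the same mice low.

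Gbp2, Rsad2 and Gbp6 followed neither block closely. Gbp2, a guanylate-binding protein with an ISRE match in its promoter, ran against the type I targets, with r = -0.51 against their median and -0.27 against the other type II targets. Its most negative pair was with Bst2, at -0.757. Rsad2 correlated at 0.26 with the type I median and 0.25 with the type II median although its promoter holds an ISRE match. Gbp6 was at 0.12 and 0.04; 70.7% of its 50-base windows also occur in another gene, Gm43302 for the most part, so its reads may not be its own. Irf1, the GAS-bearing factor, followed type II targets at 0.58 and type I targets at -0.09.

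**Figure D2:**
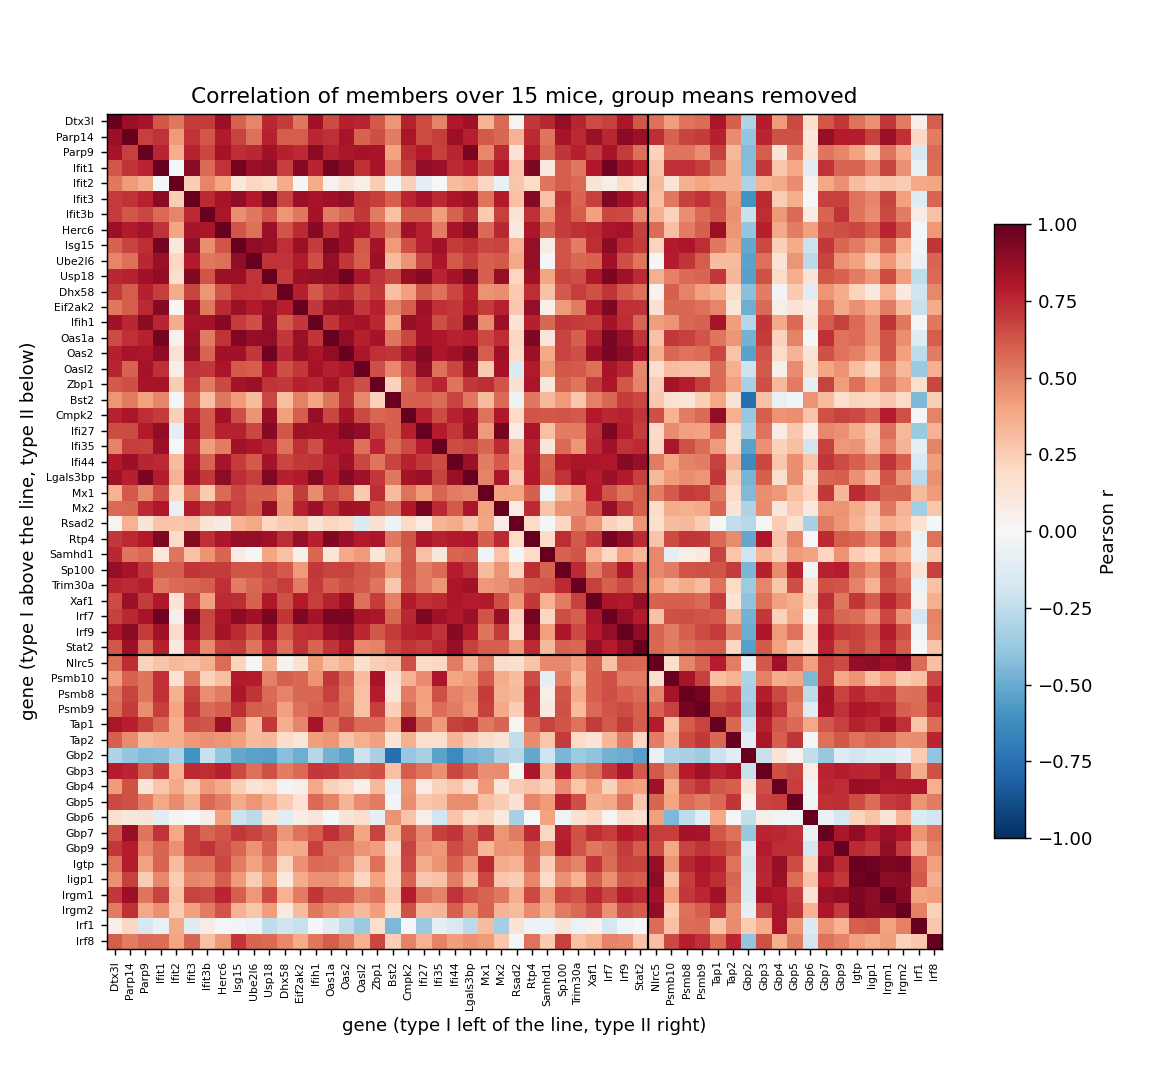
Both axes list the 54 tested genes, type I before the line and type II after it, and colour gives Pearson's r over 15 mice with group means removed, from blue (-1) to red (1). The 2 blocks on the diagonal are redder than the blocks between them, and Gbp2 is a blue stripe across the type I targets.

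A score for each mouse, the median over members of a type of log2(value + 1) minus the gene's mean over 15 libraries, sums up the blocks. The type I score was -0.09, -0.15, 0.49, -0.04 and -0.45 in 6-month mice 1 to 5, 0.47, -0.59, 0.19, -0.00 and 0.66 in 12-month controls 1 to 5, and -0.15, 0.12, -0.05, 0.21 and -0.62 in canagliflozin mice 1 to 5. The type II score was 0.05, -0.15, 0.23, 0.50 and -0.18, then 0.18, -0.47, -0.18, 0.46 and 0.64, then -0.10, -0.09, -0.00, 0.09 and -0.53 in the same order. The groups overlapped in both scores. From canagliflozin mouse 5, the lowest in both, to 12-month control mouse 5, the highest in both, the type I score spanned 2.44-fold and the type II score 2.25-fold. Group means of the type I score lay between -0.10 and 0.15, with SDs of 0.32 to 0.48 (n = 5 each).

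The mice that held the highest values differed between the types. 12-month control mouse 1 held the highest of 15 values in 11 of 35 type I targets and in 0 of 19 type II targets, and 6-month mouse 3 in 8 and 1. 6-month mouse 4 held the highest value in 0 type I and 5 type II targets. 12-month control mouse 5 was highest in 10 and 11. The lowest value fell to canagliflozin mouse 5 in 9 and 7 members and to 12-month control mouse 2 in 9 and 4.

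**Figure D3:**
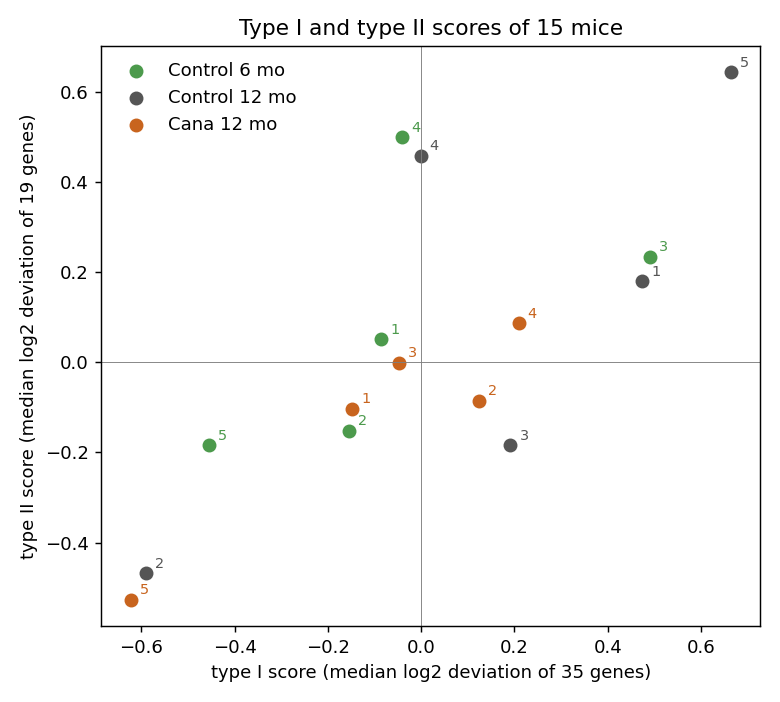
Each point is 1 mouse, numbered by replicate, with its type I score on the x axis and its type II score on the y axis, both in log2 units. Mice 4 of the 6-month and 12-month control groups lie near 0 for type I and at 0.50 and 0.46 for type II, and the 3 groups overlap on both axes.

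Canagliflozin against untreated mice at 12 months gave no member that passed the test. At an adjusted p under 0.05 (limma on log2(value + 1), Benjamini-Hochberg over 17569 genes), 0 of 54 members were called, where 0.00569% of all genes tested, 1 gene, was called in either direction. Estimates were below 0 for 48 of 54 members, with a median log2 fold change of -0.25 for type I and -0.26 for type II targets beside -0.00 over all genes tested. Since members move together from mouse to mouse, as given above, 48 estimates on the same side are not 48 separate observations. At an unadjusted p under 0.05, 6 members were lower and 0 higher, against 4.43% of all genes lower and 4.77% higher. With edgeR and with DESeq2 on the recovered reads 0 of 54 members were called, and each gave 8 in either direction at an unadjusted p under 0.05. Over all 17569 genes, edgeR gave 955 higher and 762 lower at that threshold, and DESeq2 gave 1041 higher and 786 lower. Leaving out canagliflozin mouse 5 brought the type I median to -0.10, leaving out 12-month control mouse 1 or 5 brought it to -0.13 in each case, and leaving out 12-month control mouse 2 brought it to -0.42. For type II targets it was -0.11 without 12-month control mouse 5 and -0.41 without mouse 2.

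Irgm2, a GTPase that restrains inflammasome activation by bacterial products, was at 146.0, 217.5, 181.5, 151.7 and 115.1 in canagliflozin mice 1 to 5 and at 282.6, 159.1, 275.4, 370.2 and 479.3 in the 12-month controls. The ranges overlapped through control mouse 2. The log2 fold change was -0.89 (SE 0.28, adjusted p = 0.462, limma). The remaining immunity-related GTPases, Igtp, Iigp1 and Irgm1, had estimates below 0 as well, none of them called, with a median of -0.52 over the 4 genes.

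Ifit3b, a member of the IFIT family, was at 13.4, 20.9, 16.8, 17.8 and 14.0 in the canagliflozin mice and at 43.0, 13.6, 26.6, 47.2 and 59.9 in the controls. Again 1 control, mouse 2, lay within the range of the treated mice. The log2 fold change was -1.01 (SE 0.35, adjusted p = 0.462, limma). Ifit3 stood at -0.57 (SE 0.27, adjusted p = 0.546, limma); 51.2% of its 50-base windows occur in Ifit3b as well, so reads of the 2 genes may be exchanged. The 4 IFIT genes had a median of -0.60.

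Gbp6 had a log2 fold change of -1.04 (adjusted p = 0.489, limma), with the shared sequence named above. Gbp2 was at -0.44 (adjusted p = 0.511, limma) and Gbp5, which promotes inflammasome assembly, at -0.49 (adjusted p = 0.587, limma). Of the 7 guanylate-binding proteins 6 were below 0, with a median of -0.29. The ADP-ribosyltransferase Parp14 was at -0.46 (adjusted p = 0.490, limma) and Dtx3l, the ubiquitin ligase that partners PARP9, at -0.41 (adjusted p = 0.529, limma). Dtx3l and Parp9 overlap on opposite strands over 367 exon bases, and whether counting used the strand is not given in the sources used here. The 5 transcription factors, Irf1, Irf7, Irf8, Irf9 and Stat2, lay between -0.20 and 0.03.

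Estimates above 0 were found for Rsad2 (0.18), Gbp9 (0.16), Tap2 (0.12), Ifi35 (0.10), Psmb10 (0.07) and Stat2 (0.03), and none of them was called. The class I antigen processing genes had a median of -0.06 over 6 genes, the value nearest 0 among the role groups. Standard errors ran as high as 0.55 for Oas2 and 0.55 for Usp18, so that a change of 2-fold in these genes would lie within 2 standard errors.

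**Figure D4:**
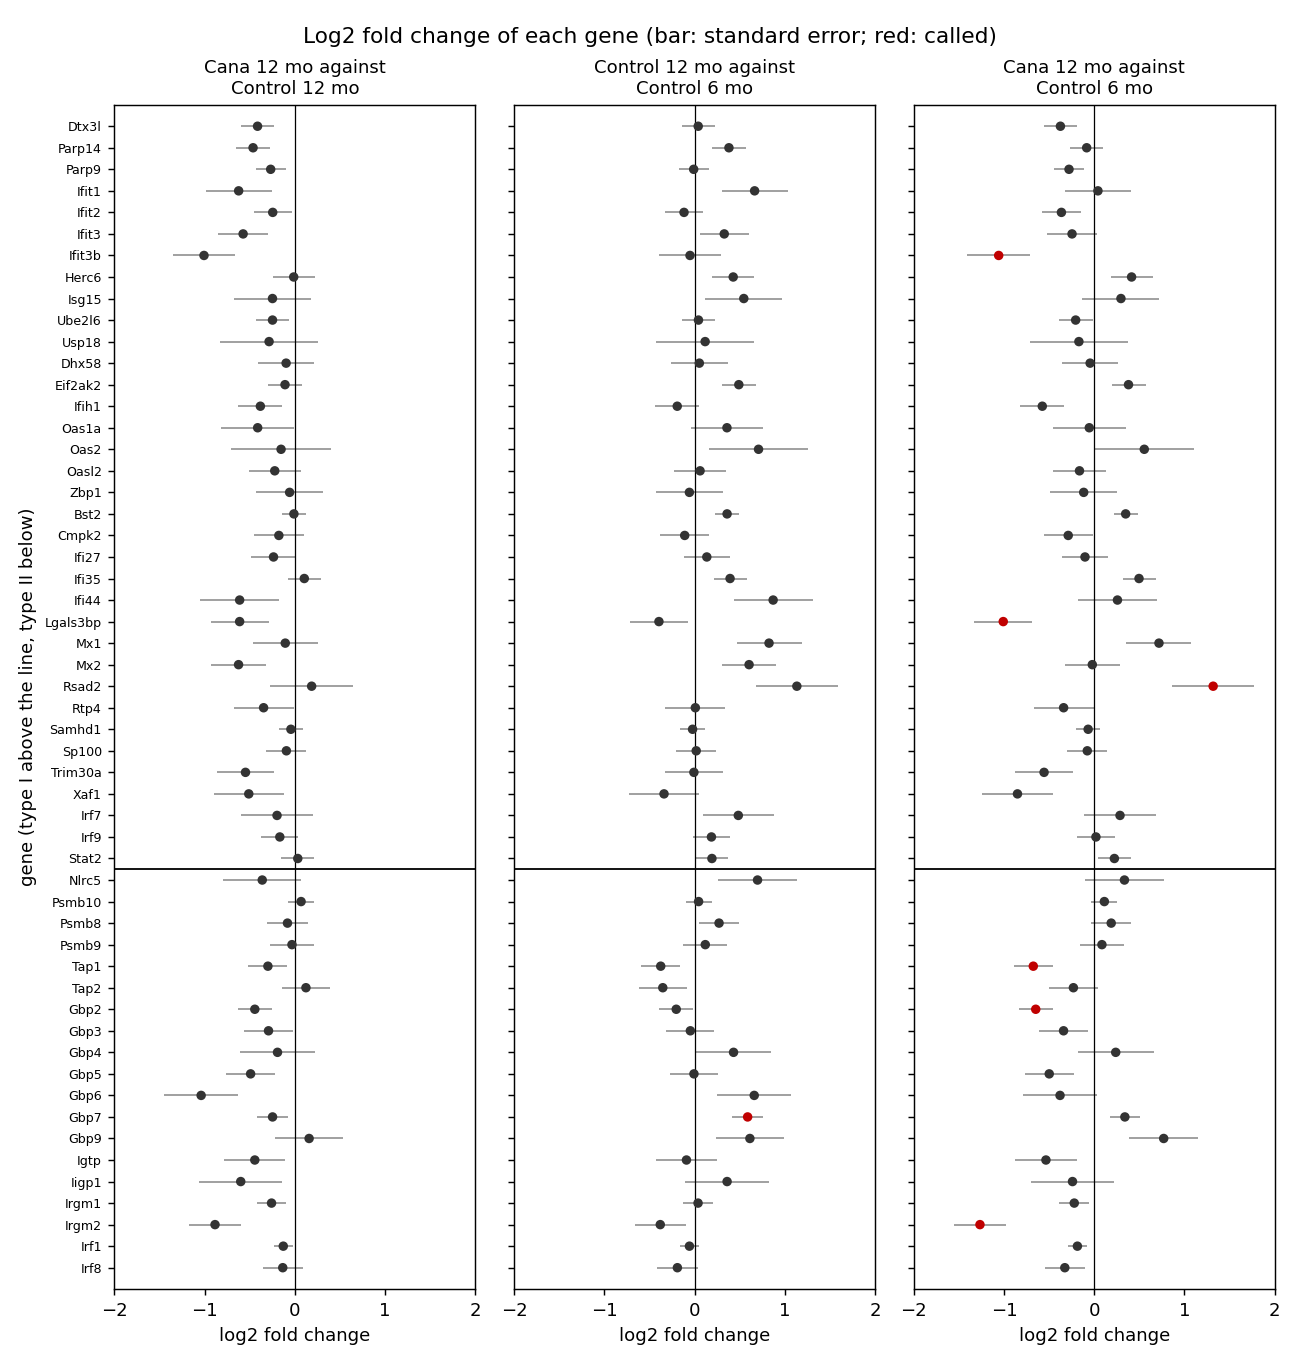
Points give the log2 fold change of each tested gene in the 3 comparisons and bars its standard error, with type I targets above the line and called genes (limma, adjusted p under 0.05) in red. In the left panel 48 of 54 points lie left of 0 and none is red.

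Age, 12-month against 6-month controls, gave 1 member that passed the test. At an adjusted p under 0.05 (limma), 1 of 54 members was called higher and 0 lower, where 5.4% of all genes tested were called higher and 7.01% lower. Estimates were above 0 for 25 of 35 type I and 10 of 19 type II targets, with medians of 0.14 and 0.04 beside 0.00 over all genes. The type I median was 0.37 without 12-month control mouse 2, 0.27 without 6-month mouse 3, 0.09 without 6-month mouse 4, 0.06 without 12-month control mouse 5, and 0.02 without 12-month control mouse 1 or without 6-month mouse 5. The type II median changed sign, to between -0.06 and -0.02, without 12-month control mouse 4 or 5 or without 6-month mouse 2 or 5.

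The called gene was Gbp7, a guanylate-binding protein that acts against intracellular pathogens. It was at 291.0, 303.4, 419.8, 414.6 and 303.4 in the 6-month mice and at 491.7, 371.6, 506.7, 595.8 and 651.3 in the 12-month controls. All the 12-month controls but mouse 2 lay above every 6-month mouse. The means were 346 ± 64.8 and 523 ± 107 (SD, n = 5), a log2 fold change of 0.59 (SE 0.17, adjusted p = 0.0322, limma), and the canagliflozin mice stood between at 440 ± 83.2. The call was lost without 12-month control mouse 1, 3, 4 or 5 or without 6-month mouse 1, 2 or 5, with adjusted p up to 0.0805, while the log2 fold change stayed between 0.50 and 0.70. A pseudogene, Gm43802, accounts for most of the 12.7% of Gbp7 windows found elsewhere.

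The type I targets with the smallest p were Bst2, Eif2ak2, Rsad2 and Mx1, and none was called. Bst2 was at 2092, 1981, 1724, 1900 and 1975 in the 6-month mice and at 3118, 1970, 2841, 2093 and 2559 in the 12-month controls, a log2 fold change of 0.36 (SE 0.13, adjusted p = 0.0917, limma). It was called by DESeq2, with adjusted p = 0.0427. Eif2ak2, which encodes PKR, the kinase that halts translation on double-stranded RNA, had 0.49 (SE 0.19, adjusted p = 0.102, limma) and was called without 6-month mouse 3 (adjusted p = 0.0496). Mx1, a dynamin-like GTPase with values of 4.54 to 26.9 over the 15 mice, had 0.82 (SE 0.36, adjusted p = 0.150, limma). Without 12-month control mouse 2, the low mouse of its group, 6 of 54 members were called higher: Bst2, Eif2ak2, Gbp7, Herc6, Ifi44 and Parp14. In that fit 897 of all 17569 genes tested were called higher. This mouse had the lowest type I and type II scores of its group, so leaving it out raises the group's level for the set.

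The type II targets next after Gbp7 were Gbp9 at 0.61 (adjusted p = 0.323, limma), Gbp6 at 0.66 (adjusted p = 0.322, limma) and Tap1 at -0.38 (adjusted p = 0.282, limma). By role, the ISG15 conjugation genes were all above 0, with a median of 0.27 over 4 genes, and the immunity-related GTPases were divided, with a median of -0.03 over 4 genes. Nlrc5 at 0.70 had the highest estimate among type II targets and was not called (adjusted p = 0.324, limma).

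Canagliflozin mice at 12 months against 6-month controls, a comparison that joins age and drug and shares samples with both others, called 6 members. Rsad2 was higher, and Irgm2, Gbp2, Tap1, Lgals3bp and Ifit3b were lower, where 13.5% of all genes tested were called higher and 14.9% lower. The medians were -0.08 for type I and -0.23 for type II targets. The type I median was 0.07 without 6-month mouse 3 and -0.01 without canagliflozin mouse 5. Groups did not overlap for 3 members, Irgm2, Tap1 and Ifit3b, all lower, beside 10.4% of all genes.

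Irgm2 was at 343.2, 281.6, 374.0, 712.2 and 320.2 in the 6-month mice. The canagliflozin mice, at 217.5 or below, all lay beneath them. The means were 406 ± 174 and 162 ± 38.8 (SD, n = 5), with 12-month controls between at 313 ± 119, and the log2 fold change was -1.27 (SE 0.28, adjusted p = 0.00407, limma). Gbp2 was at 564.0, 610.5, 693.5, 794.4 and 674.2 in the 6-month mice and at 359.0, 321.8, 585.0, 315.2 and 632.5 in the canagliflozin mice. Canagliflozin mice 3 and 5 lay within the 6-month range and the other mice of the group below it. The log2 fold change was -0.65 (SE 0.19, adjusted p = 0.0170, limma), with 12-month controls at 580 ± 84.3. Irgm2 and Gbp2 were called in all 15 fits with a mouse left out and in all 10 other settings tried.

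Tap1, the partner of Tap2 in the peptide transporter, was at 595.3, 396.1, 471.4, 529.9 and 388.6 in the 6-month mice and at 242.2, 329.2, 324.6, 346.9 and 244.2 in the canagliflozin mice. The groups did not overlap, with a log2 fold change of -0.67 (SE 0.22, adjusted p = 0.0289, limma) and 12-month controls at 384 ± 150. Tap1 shares its promoter region and 212 exon bases of the opposite strand with Psmb9, which had a log2 fold change of 0.09 and was not called. Lgals3bp fell from 1240, 1114, 1938, 905.5 and 820.9 in the 6-month mice to 419.8, 873.0, 510.1, 705.8 and 456.4, a log2 fold change of -1.01 (SE 0.32, adjusted p = 0.0293, limma). Canagliflozin mouse 2 lay within the 6-month range. Ifit3b was at 28.4, 61.8, 41.9, 30.5 and 23.8 in the 6-month mice, above every canagliflozin mouse, with a log2 fold change of -1.06 (SE 0.35, adjusted p = 0.0317, limma).

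Calls of Tap1, Lgals3bp and Ifit3b depended on single mice. Tap1 was not called without canagliflozin mouse 1 or 5 or 6-month mouse 1 or 4, with adjusted p up to 0.0719. Lgals3bp was not called without canagliflozin mouse 1, 3 or 5 or 6-month mouse 1, 2 or 3, with adjusted p up to 0.0731. Ifit3b was not called without canagliflozin mouse 1, 3 or 5 or 6-month mouse 2 or 3, with adjusted p up to 0.0885.

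Rsad2 was at 22.8, 18.2, 69.2, 22.9 and 41.6 in the 6-month mice, 29.6, 41.7, 144.1, 121.0 and 70.3 in the 12-month controls and 66.9, 163.9, 68.1, 78.3 and 50.04 in the canagliflozin mice. Of the 6-month mice, mouse 3 lay within the range of the treated mice. The log2 fold change was 1.32 (SE 0.46, adjusted p = 0.0419, limma) against 6-month controls and 0.18 against 12-month controls, and 1.13 between the control ages (adjusted p = 0.120, limma, and 0.0462 with DESeq2, which called it). The call was lost with edgeR (adjusted p = 0.0540), with edgeR on 12 libraries (adjusted p = 0.0765), with no filter on low values (adjusted p = 0.0523), and in 8 of 15 fits with a mouse left out. These were the fits without canagliflozin mouse 1, 2, 3 or 4, without 12-month control mouse 5, or without 6-month mouse 1, 2 or 4, with adjusted p up to 0.102.

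**Figure D5:**
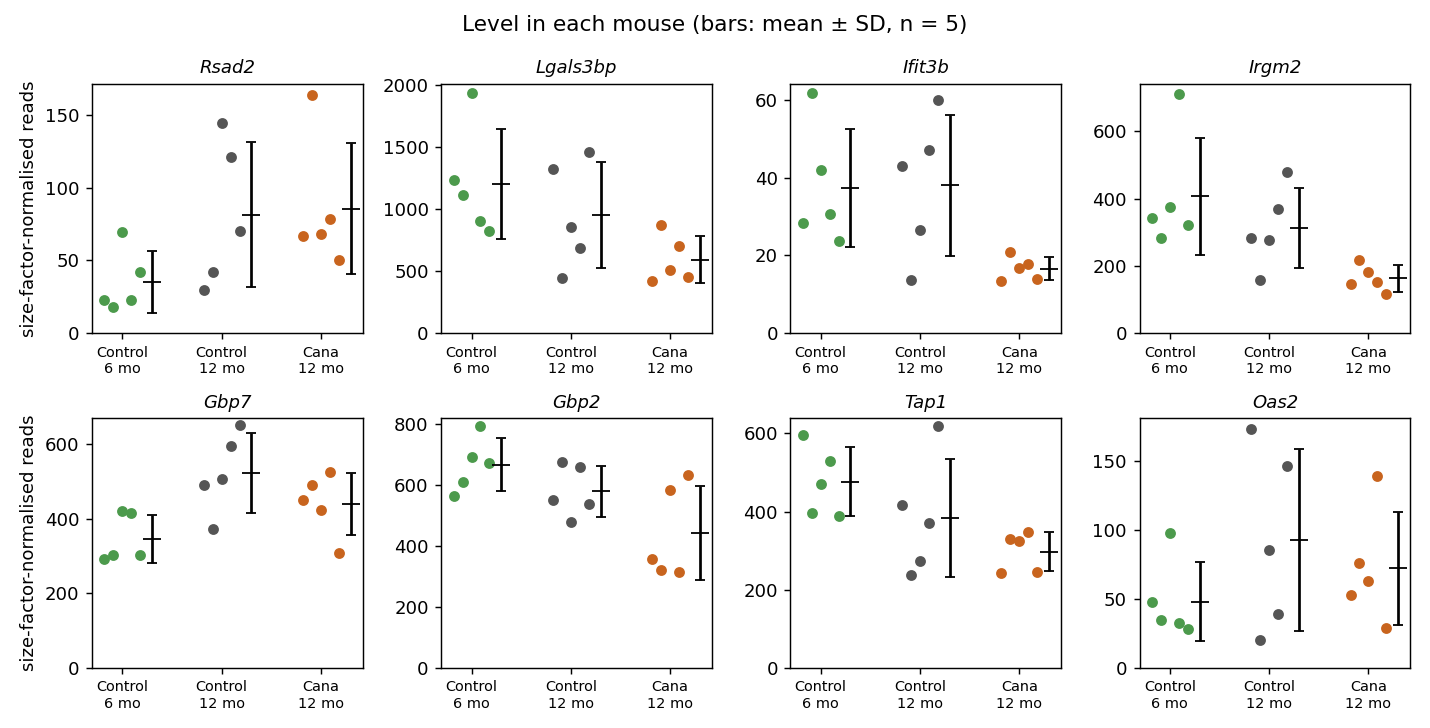
Points are the 5 mice of each group and bars the mean ± SD of size-factor-normalised reads, on axes that start at 0, for the 6 genes called against 6-month controls, the 1 called between control ages (Gbp7), and Oas2. The canagliflozin mice of Irgm2, Tap1 and Ifit3b all lie below the 6-month mice, and the 12-month controls of these genes span both.

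Beyond the targets, 55 symbols of interferon pathway genes were fixed as a list of ligands, receptors, kinases, sensors, inhibitors and class I molecules. The list holds an older and a newer symbol for each of Ddx58 (Rigi), Mb21d1 (Cgas) and Tmem173 (Sting1). Of the symbols, 41 stood for a gene that was tested. Of 11 interferon genes, Ifng was the one present in the table, with values of 0 to 3.65 and no test. Of the 41, 0 were called for the drug (limma; 1 with DESeq2), 1 was higher and 3 lower for age, and 3 were higher and 7 lower in canagliflozin mice against 6-month controls. Over all genes tested 5.4% were higher and 7.01% lower for age, and 13.5% higher and 14.9% lower in the last comparison, so these counts show nothing particular to the list. Samhd1, an inhibitor in this list, is also a member.

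The receptor chain Ifngr2 fell with age, from 886 ± 78.7 to 687 ± 64.7 (SD, n = 5), a log2 fold change of -0.37 (SE 0.09, adjusted p = 0.0126, limma), and stood at 610 ± 48.8 in canagliflozin mice. The other receptor chains Ifnar1, Ifnar2 and Ifngr1 were not called in any comparison. Jak1, the kinase that both receptors use, rose with age from 3104 ± 240 to 4211 ± 509 (SD, n = 5), a log2 fold change of 0.44 (SE 0.09, adjusted p = 0.00747, limma), and was at 4094 ± 329 in canagliflozin mice. Tyk2, the partner kinase at IFNAR, had a log2 fold change of 0.29 for the drug (SE 0.07, adjusted p = 0.326, limma). It was at 673.0, 776.2, 841.6, 755.4 and 730.6 in canagliflozin mice 1 to 5. The 12-month controls were at 663.5, 573.4, 587.4, 657.3 and 612.2, so these groups did not overlap, though Tyk2 was not called. The 6-month mice stood between at 704 ± 12.3 (SD, n = 5).

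Upstream of interferon, Tlr9, the endosomal sensor of unmethylated DNA, fell with age from 21.7 ± 6.42 to 4.61 ± 3.11 (SD, n = 5). The log2 fold change was -2.14 (SE 0.38, adjusted p = 0.00214, limma), and canagliflozin mice stood at 2.97 ± 1.17. Every mouse of both 12-month groups was at 9.55 or lower, so Tlr9 passed the filter through the 6-month mice alone. Its passing and its call rest on the same difference, and the 12-month values rest on few reads. Mavs, the mitochondrial adaptor of the RNA sensors, fell from 689 ± 36.1 to 509 ± 40.6, a log2 fold change of -0.44 (SE 0.12, adjusted p = 0.0204, limma). Against 6-month controls, canagliflozin mice also had lower Tlr7, the sensor of single-stranded RNA (-1.27, adjusted p = 0.0198, limma), Ticam1, the adaptor of TLR3 (-0.34, adjusted p = 0.0429, limma), Stat3 (-0.51, adjusted p = 0.0458, limma) and Tapbp, which loads peptide on class I molecules (-0.44, adjusted p = 0.0422, limma). They had higher Irf3, the factor that starts type I interferon transcription (0.40, adjusted p = 0.00283, limma), and Trex1, a nuclease that clears cytosolic DNA (0.54, adjusted p = 0.0446, limma).

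Pathway genes outside the set followed the mice to different degrees. With group means removed, B2m, the light chain of class I molecules, correlated at 0.83 with the type I median and 0.85 with the type II median over 15 mice. Adar was at 0.91 and 0.60, and Ddx58 (RIG-I) at 0.84 and 0.68. The receptor chains Ifnar1 and Ifngr2 were at 0.18 and 0.26 with type I and 0.28 and 0.12 with type II targets, and Jak1 at 0.21 and 0.18. Socs1, a feedback inhibitor of JAK kinases, was at -0.02 and 0.00. B2m and Adar are themselves known interferon targets and are not members of the set.

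Markers of ovarian cells (granulosa, steroidogenic and oocyte lists) were all present, and those of immune, endothelial and red cells moved with some results. For the drug all 7 endothelial and all 5 red cell markers were above 0, with medians of 0.22 and 1.19 and 0 called. The red cell sum ran over 168 to 18087 in 12-month controls and 1457 to 7442 in canagliflozin mice. With group means removed, the endothelial sum correlated at 0.17 with the type I and 0.06 with the type II median. The red cell sum correlated at 0.41 and 0.18. None of the neutrophil markers was tested. All 10 macrophage markers were tested: 9 of 10 were below 0 for the drug with a median of -0.34 and 0 called. For age 2 were lower, Adgre1 (-1.31, adjusted p = 0.00508, limma) and Csf1r (-1.06, adjusted p = 0.0105, limma), and in canagliflozin mice against 6-month controls all 10 were below 0 and 4 were called lower, where 7.01% and 14.9% of all genes tested were called lower in these comparisons. Their summed value ran over 2638 to 4625 in 6-month mice, 1673 to 3941 in 12-month controls and 1837 to 2899 in canagliflozin mice. The 10 T and NK cell markers summed to 77.3 to 138, 117 to 353 and 87.1 to 267, with 2 of 6 tested called higher for age, Cd3g and Trbc2, and 3 of 6 in canagliflozin mice against 6-month controls, where 5.4% and 13.5% of all genes were called higher. The 7 B and plasma cell markers summed to 124 to 166, 256 to 673 and 437 to 580 in the same order, so that the 6-month mice lay below both 12-month groups. For age 2 of the 4 tested were called higher, the immunoglobulin light chain Igkc (log2 fold change 3.98, adjusted p = 4.1e-06, limma) and Jchain, which joins immunoglobulin units (3.23, adjusted p = 4.3e-05, limma). These genes carried the gap in the sum. Of the 4, 3 were above 0 and 1 below for age, and 2 above and 2 below in canagliflozin mice against 6-month controls. Means in 6-month mice and 12-month controls were 97.6 and 95.2 for Ighm and 9.10 and 10.4 for Cd79b. Of 5 dendritic cell markers tested, 3 were above 0 and 2 below for age, with a median of 0.28 and 1 called higher. The called marker was Siglech, a receptor of plasmacytoid dendritic cells (1.32, adjusted p = 0.0268, limma). Its values were low, at 6.54 ± 5.38 in 6-month mice and 15.6 ± 3.41 in 12-month controls (SD, n = 5). The 6-month mouse 1, at 16.1, lay within the range of the 12-month controls. With group means removed, the macrophage sum correlated at 0.54 with the type I and 0.42 with the type II median. The T and NK cell sum correlated at 0.55 and 0.72, the B and plasma cell sum at 0.37 and -0.02, the dendritic cell sum at 0.10 and 0.61, and the oocyte sum at -0.52 and -0.30. Most of the dendritic cell sum was 1 gene, Zbtb46, so its correlations describe mainly that gene. Zbtb46 had means of 577, 576 and 580 in 6-month mice, 12-month controls and canagliflozin mice, beside median sums of 648, 696 and 729. No marker of the macrophage, T and NK cell, B and plasma cell or dendritic cell lists was at 0 in every mouse. The part of these cells in the results was not tested.

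The libraries held 8.47 to 13.1 M recovered reads (M, 1000000 reads) in the 12-month groups and 11.8 to 13.6 M in the 6-month group, and no difference in depth between groups was detected (exact two-sided permutation tests, p = 0.222 to 0.587, n = 5 each). Mitochondrially encoded genes took 2.72% to 3.19% of the value in 6-month mice, 3.70% to 4.46% in 12-month controls and 4.84% to 9.37% in canagliflozin mice; their part in the results was not tested. No pair of libraries of a group agreed within counting noise.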

How the data were processed

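Polyadenylated RNA of 1 ovary from each of 15 mice was sequenced with a directional kit, per the labels' protocols. Values are deposited as a signal for every gene in every library. By the numbers themselves, each is a whole number of reads divided by 1 factor per library: after multiplying back, at least 99.99% of values lay within 0.1 of a whole read. For 3 libraries the factor lies so near 1 that this check says little. Partek 11.0 and mm39 are named per the submitters' processing notes, with the counter and its strand setting not given in the sources used here.

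The 17569 of 24656 genes that reached 10 in 5 or more of the 15 libraries were fitted together with limma 3.58.1 (R 4.3.3, trend and robust variances) on log2(value + 1), all 3 groups in 1 fit, with Benjamini-Hochberg adjustment over all genes tested. The pseudocount of 1 makes fold changes of low genes too small. The test was tried on simulated data. As alternatives, edgeR 4.0.16 called 9, 2224 and 5174 genes on the recovered reads for drug, age and canagliflozin against 6-month controls, where limma called 1, 2179 and 4982, and DESeq2 1.42.0 called 59, 2956 and 5769. Other alternatives were pseudocounts of 0.5 and 5, no filter or a minimum of 50, TMM scaling, fits of 2 groups, a replicate block, leaving out each mouse and, chosen after seeing the data, edgeR on 12 libraries.

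Exon lengths and shared 50-base windows came from a GRCm38 annotation matched by gene identifier, and promoter windows from RefSeq. Since the deposited values were made on another build, no coordinate of theirs was used. The members, their types and all gene lists were chosen with earlier results of these data known. Named genes are every called member, the 4 members of each type with the smallest p for drug and for age, the 3 of each type with the widest range and with the highest level per kb, and pathway genes that were called or serve as receptors and kinases. Genes named from correlations were picked after their values were seen. One gene of the pathway list counts among those tested and is not reported here by name.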

Additional observations from a re-analysis of the deposited data

Results flagged for a closer look

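Dixon's test at the 95% level was run on 78 groups of 5 mice, for 26 items. The items were the named members and the type I and type II scores. In 4 of the 78 groups 1 mouse lay far from the rest, and chance alone flags about 1 group in 20. Eif2ak2 was at 250.2 in canagliflozin mouse 5, below the other treated mice. Irgm2 was at 712.2 in 6-month mouse 4, above the others of its group, and without this mouse Irgm2 was still called lower in canagliflozin mice against 6-month controls. Oas2 was at 97.4 in 6-month mouse 3, and Rsad2 at 163.9 in canagliflozin mouse 2, each above the others of its group.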

How the results depend on the processing

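Under all 10 alternative settings and all 15 fits with a mouse left out, 0 members were called for canagliflozin against 12-month controls and 0 members were called lower for age. For the drug, 1 pathway gene was called by DESeq2 and 0 by the main test, where DESeq2 called 59 of 17569 genes and the main test 1. For age, DESeq2 called 3 members higher in place of 1, where it called 1334 of all 17569 genes higher. Leaving out a mouse gave 0 to 6 members higher, where 645 to 1067 of all genes were called higher. For canagliflozin against 6-month controls, where the main counts were 1 higher, 5 lower and 10 pathway genes, edgeR on 12 libraries gave 0, 2 and 6. Of all 17569 genes the main test called 2372 higher and 2610 lower, and edgeR on 12 libraries 2009 and 1907. The higher count of members was 3 with DESeq2, 0 without a filter, 2 with a minimum of 50 and 4 with a fit of the 2 groups alone. Over all genes it was 2976 of 17569, 2369 of 24656, 2086 of 13776 and 2131 of 17569 in the same order. Leaving out a mouse gave 0 to 5 higher, 2 to 5 lower and 6 to 11 pathway genes. Of all 17569 genes these fits called 1809 to 2561 higher and 2121 to 2759 lower. No result reversed its call, and the cause of these shifts was not tested. The labels do not say whether replicate numbers pair the mice, and no sign of pairing was seen in the values. Over 15 pairs of same-numbered mice of different groups, deviations correlated at -0.298 to 0.249, with 3 above 0.1 and 2 mice closest to their own number. The replicate block gave 3 members lower in place of 5, with Lgals3bp (adjusted p = 0.0651, limma) and Ifit3b (adjusted p = 0.0675, limma) no longer called. With the block 2543 of all 17569 genes were called lower. The median of type II targets for age ran from -0.03 to 0.04 over the alternatives, so its sign is not settled. Members with values under about 50, such as Ifit3b, Mx1 and Usp18, rest on few reads.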
